A study of Mus musculus with 14 samples.

Results

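A set of 44 genes of the extracellular matrix was examined among the 24411 genes counted by bulk RNA sequencing in mouse kidneys after renal ischemia/reperfusion injury (IRI), in which the blood flow to the kidney is stopped and then restored. The members were taken by gene symbol from a fixed list and fall into 28 genes of the interstitial matrix and 16 genes of the basement membrane. The kidneys came from male C57/B6 mice aged 8 weeks, with no transgene or drug named, and gave 4 libraries at day 0 and, after IRI, 5 libraries for day 1 and 5 for day 3. In the library names day 0 kidneys are controls, and whether these mice had sham surgery is not stated in the sources used here. The labels do not say that each library came from a separate mouse, so p-values measure the spread between these libraries. The question addressed was how the expression of interstitial matrix and of basement membrane genes differed between the days, and whether the number format of the libraries moved with these values.

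The interstitial matrix fills the space between the tubules and capillaries and is made mainly by fibroblasts and pericytes. Its fibrillar collagens form the bundles that accumulate in a scarred kidney, and its matricellular proteins, such as tenascin C, appear in wounds. The basement membrane is a thin sheet under epithelial and endothelial cells in which a network of type IV collagen is joined to a network of laminin by nidogens and perlecan. The glomerular filter is built on a special type IV network of α3, α4 and α5 chains, which podocytes make, whereas the α1 and α2 chains occur in nearly all basement membranes.

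The regions upstream of a few gene starts are shown to set the genes of each class side by side. Sequences were taken from RefSeq promoters of GRCm38.p6, which covered 29 of the 44 members, and are written 5′ to 3′ on the strand of the gene. A panel of 6 short motifs was searched on both strands at any position, and their matches are in capitals. These were the letters TATAAA of the TATA box, CCAAT of the CCAAT box, GGGCGG of a GC box, TGANTCA for AP-1, GGAATG for TEAD and CAGACA for Smad proteins. A match shows the letters only, and whether it is a working site was not tested. Col3a1, a fibrillar collagen, is shown with the 250 bases before its start at chr1:45311288-45311537 on the plus strand, and Lama5, a laminin chain, with the 250 bases at chr2:180225860-180226109 on the minus strand. Col4a4 and Col4a3 lie head to head, and the 71 bases between their starts at chr1:82586850-82586920 are shown on the minus strand, that of Col4a4.
Col3a1: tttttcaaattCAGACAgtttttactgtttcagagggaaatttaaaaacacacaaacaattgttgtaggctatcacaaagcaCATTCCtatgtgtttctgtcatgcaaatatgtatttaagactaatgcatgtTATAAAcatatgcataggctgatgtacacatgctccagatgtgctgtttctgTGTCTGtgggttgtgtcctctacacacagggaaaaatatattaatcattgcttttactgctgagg
Lama5: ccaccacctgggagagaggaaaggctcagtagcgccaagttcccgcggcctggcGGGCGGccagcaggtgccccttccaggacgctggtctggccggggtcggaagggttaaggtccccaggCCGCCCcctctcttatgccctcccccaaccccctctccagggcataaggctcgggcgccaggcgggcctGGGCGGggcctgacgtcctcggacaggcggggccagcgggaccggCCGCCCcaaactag
Col4a4: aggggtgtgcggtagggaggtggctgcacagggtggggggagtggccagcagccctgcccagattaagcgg
The Col3a1 stretch held TATAAA once, GGAATG once and CAGACA at 2 places, the Lama5 stretch held GGGCGG at 4 places, and the 71 bases between Col4a4 and Col4a3 held none of the motifs. The TATAAA of Col3a1 began at base -117 from the gene start. TATAAA occurred in 3 of the 17 interstitial promoters in the table (Col3a1, Tnc and Thbs2), in 0 of the 12 basement membrane promoters and in 13.0% of all 27025 promoters. GGGCGG occurred in 11 of 17 and 7 of 12 promoters, against 32.9% of all. CAGACA occurred in 6 of 17 and 1 of 12 (17.1% of all), and CCAAT in 6 of 17 and 6 of 12 (34.5%). GGAATG occurred in 2 of 17 and 1 of 12 (12.6%), and TGANTCA in 1 of 17 and 0 of 12 (6.87%). The median GC content was 60.8% for the interstitial and 62.4% for the basement membrane promoters, against 52% for all. Col4a1 and Col4a2 also lie head to head, on chromosome 8, and their annotated starts overlap by 22 bases.

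Between 12485579 and 20476979 reads per library fell on genes, and each member had from 6 reads in 1 library (Lum) upward. All 44 members passed edgeR's expression filter, as did 14300 genes in all. Expression is given as CPM, the counts of a gene relative to the gene reads of its library, which edgeR's TMM method scaled between libraries, with the SD over libraries. Markers of the proximal tubule, the main cell type of the kidney cortex, summed to between 43154 and 46890 CPM at day 0, and tubular injury markers rose in 7 of 8 genes at both later days. The name of each library ends in a number, of 1 digit for every day 0 library, for day 1 replicates 3, 4 and 5 and for day 3 replicates 4 and 5. The other 5 libraries, 2 at day 1 and 3 at day 3, carry numbers with 3 digits, and what this format stands for is not given in the sources used here. Day 0 replicate 4 stood apart from the other day 0 libraries in 8 members, and its urothelium markers, which mark the lining of the renal pelvis, summed to 57.0 CPM against 3.94 to 12.3 CPM in the others. The part of these cells in its matrix values was not tested. Without it, Col3a1 and Bgn lost and Vcan, Fn1 and Postn gained a call at day 1, Col4a4 and Nid2 lost the call at day 3, and the folds of Vcan, Postn and Tnc moved by over 1.5 times, and these values are given beside the genes.

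Both classes were higher after IRI, the interstitial genes by the larger factor. Summed over its 28 genes, the interstitial class had 620.1 ± 6.18 CPM at day 0 (SD, n = 4), 1261 ± 252 CPM at day 1 (SD, n = 5) and 2349 ± 599.9 CPM at day 3 (SD, n = 5). The 16 basement membrane genes summed to 1708 ± 45.8, 2582 ± 144 and 3073 ± 699.8 CPM in these groups. The interstitial sum was 2.03 times that of day 0 at day 1 and 3.79 times at day 3, and the basement membrane sum 1.51 and 1.80 times. No library of day 1 or day 3 overlapped with day 0 in either sum. At day 1 the interstitial sum was 943 to 1245 CPM in the 1-digit and 1485 and 1536 CPM in the 3-digit libraries. The interstitial sum divided by the basement membrane sum was 0.358 to 0.374 at day 0, 0.393 to 0.602 at day 1 and 0.551 to 0.953 at day 3, with no test on these summed values. In bulk tissue, more cells of a type and more RNA per cell cannot be told apart.

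At day 1, 10 interstitial genes were higher and 0 were lower than at day 0 by edgeR's quasi-likelihood test at an adjusted p under 0.05, where 42.1% of all tested genes were called (23.3% higher and 18.7% lower). The median log2 fold change was 0.54 over the interstitial genes, 0.42 over the basement membrane genes and 0.01 over all tested genes. In the 1-digit libraries of day 1, the format of all day 0 libraries, the order of the classes was reversed, with medians of 0.28 for the interstitial and 0.33 for the basement membrane genes. Among the basement membrane genes 6 were higher and 3 lower. At day 3, 22 interstitial genes were higher and 0 lower, and 9 basement membrane genes were higher and 1 lower, where 33.3% of all tested genes were called (19.5% higher and 13.8% lower). The medians were then 1.76, 0.74 and 0.05. At an unadjusted p under 0.05, and by DESeq2, 0 interstitial genes were lower at either day. All libraries of day 3 exceeded all those of day 0 in 19 interstitial and 8 basement membrane genes, where 16.9% of all tested genes did so. Scaled to total counts without TMM, the median of all genes shifted by 0.14 at day 3 and 73.8% of the called genes were higher, against 58.5% with TMM, and 32 members were then higher and 0 lower. All 10 interstitial genes higher at day 1 were higher at day 3 too, 12 more were higher at day 3, and 6 were called at neither day (Col5a3, Col14a1, Dcn, Lum, Eln and Fbln5).

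**Figure D1:**
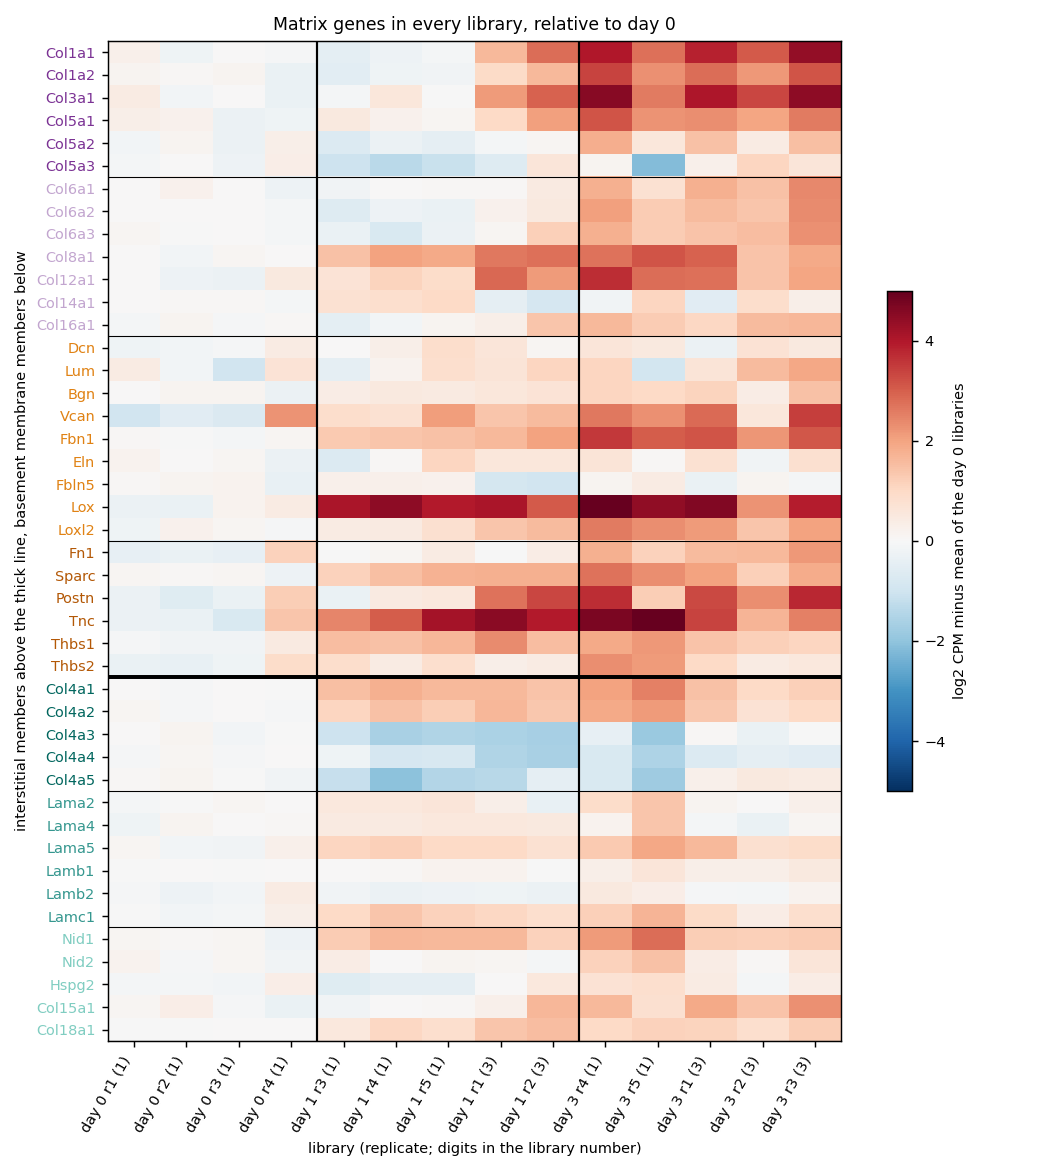
Log2 CPM of each member in each library minus the mean of the 4 day 0 libraries, with genes ordered by role and libraries by day and number format (digits in brackets). Fibrillar collagens are near their day 0 level in the 1-digit libraries of day 1 and higher in all libraries of day 3, except Col5a3, whereas Col4a3, Col4a4 and Col4a5 are lower at day 1.

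Of the 6 fibrillar collagens, which form the cross-banded fibers of scar tissue, 1 was higher at day 1 and 5 at day 3. Col1a1, the α1 chain of type I collagen (chr11:94936224-94953042 in GRCm38), had 8.80, 6.24, 7.33 and 7.01 CPM at day 0. At day 1 it had 22.8 and 51.1 CPM in the 3-digit libraries and 5.18, 6.06 and 6.68 CPM in the 1-digit libraries, and at day 3 it had 106, 62.8, 157, 117 and 50.2 CPM. The day 1 libraries thus lay on both sides of day 0, and every day 3 library except that with 50.2 CPM exceeded every day 1 library. Against day 0, Col1a1 gave a log2 fold change of 1.33 at day 1 (SE 0.61, adjusted p = 0.0903) and 3.75 at day 3 (SE 0.67, adjusted p = 0.0011). Col1a2, the partner chain, gave 0.57 (SE 0.40, adjusted p = 0.261) and 2.82 (SE 0.44, adjusted p = 0.000439), from 25.3 to 35.3 CPM at day 0 to between 145 and 337 CPM at day 3.

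Col3a1 encodes type III collagen, the fibrillar collagen of soft and early scar tissue, and showed the largest fold of the fibrillar genes. It had 27.4, 18.8, 20.97 and 16.4 CPM at day 0, 89.9, 158, 19.3, 30.1 and 19.9 CPM at day 1 and 344, 212, 454, 485 and 124 CPM at day 3. The 3-digit libraries of day 1, replicates 1 and 2, were highest at that day, and of the 1-digit libraries replicate 4 was just above the day 0 range and the others were within it. Col3a1 gave a log2 fold change of 1.61 at day 1 (SE 0.60, adjusted p = 0.0435) and 3.95 at day 3 (SE 0.67, adjusted p = 0.000781). The day 1 call was lost in 8 of the 14 fits that each left out 1 library (adjusted p from 0.0217 to 0.138), among them those without day 0 replicate 4 (1.51, adjusted p = 0.101) and without day 1 replicate 2 (0.93, adjusted p = 0.138), where Col1a1 gave 0.48. Col1a1 passed at day 1 without day 1 replicate 3 (1.57, adjusted p = 0.0446). The type V chains set the width of type I fibers. Col5a1 and Col5a2 rose at day 3, with log2 fold changes of 2.51 and 1.24, whereas Col5a3 gave 0.29 and overlapped with day 0.

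Of the other interstitial collagens, Col8a1 and Col12a1 rose at both days and the type VI chains rose at day 3. Col8a1, a network-forming collagen of vessel walls, had 3.83 to 4.49 CPM at day 0 and 11.7 to 29.1 CPM at day 1, with no overlap, and a log2 fold change of 2.25 (SE 0.36, adjusted p = 0.000368). Col12a1, which binds the surface of type I fibers, had 5.87 to 10.1 CPM at day 0, 11.7 to 52.9 CPM at day 1 and 19.5 to 93.9 CPM at day 3. Its log2 fold change was 1.78 at day 1 and 2.71 at day 3 (SE 0.52, adjusted p = 0.00176). Col6a1, Col6a2 and Col6a3 assemble together into the beaded filaments of type VI collagen. Their log2 fold changes were 0.09, -0.04 and 0.16 at day 1, all with overlapping groups, and 1.73, 1.80 and 1.72 at day 3, with no overlap. Col16a1, a fibril-associated collagen, gave 0.40 and 1.47 and passed the test at day 3. Col14a1, another fibril-associated collagen, passed at neither day, and its day 1 libraries lay on both sides of day 0, at 39.7 to 46.6 CPM in the 1-digit and 13.3 and 17.2 CPM in the 3-digit libraries against 21.7 to 24.3 CPM.

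Among the proteoglycans, elastic fiber and cross-linking genes, the cross-linking enzymes and fibrillin rose at day 1 in libraries of both formats. Lox, the lysyl oxidase that cross-links collagen and elastin, had the largest fold of all members at both days in the fit of all libraries (without day 0 replicate 4, Tnc was larger). It had 0.978, 0.942, 1.39 and 1.63 CPM at day 0, 22.3, 11.04, 22.1, 29.0 and 20.8 CPM at day 1 and 32.8, 6.25, 20.001, 45.5 and 28.4 CPM at day 3. Every later library exceeded every day 0 library, whereas day 1 and day 3 overlapped, and relative to day 0 Lox gave a log2 fold change of 4.09 at day 1 (SE 0.50, adjusted p = 6.2e-05) and 4.42 at day 3 (SE 0.51, adjusted p = 5.75e-05). Loxl2, which cross-links collagen including type IV, gave 1.01 and 2.15 and was called at both days. Fbn1, the fibrillin of microfibrils, rose from 5.43 to 6.23 CPM at day 0 to 14.9 to 24.4 CPM at day 1 and 27.4 to 70.1 CPM at day 3, with a log2 fold change of 1.60 and then 3.08, called at both days. These 3 day groups did not overlap with each other.

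Bgn, the small proteoglycan biglycan, rose by log2 fold changes of 0.51 at day 1 and 1.04 at day 3, and the day 1 call was lost without day 0 replicate 4 (0.42, adjusted p = 0.109). Its relatives decorin (Dcn) and lumican (Lum), which coat collagen fibrils, passed the test at neither day, with 0.40 and 0.41 for Dcn and 0.46 and 1.09 for Lum, whose counts were low. The elastic fiber genes Eln and Fbln5 also passed at neither day (0.43 and 0.47, and -0.13 and 0.06). Vcan, the large proteoglycan versican of provisional matrix, had 0.863, 1.18, 1.01 and 8.77 CPM at day 0, 3.09 to 7.96 CPM at day 1 and 2.70 to 20.9 CPM at day 3. Its log2 fold change was 0.75 at day 1 (SE 0.68, adjusted p = 0.389) and 1.97 at day 3 (SE 0.70, adjusted p = 0.0424), and the day 3 call was lost in 8 of the 14 fits that left out 1 library. The value of 8.77 CPM came from day 0 replicate 4. Without this library the log2 fold change was 2.28 at day 1 and 3.499 at day 3, both called.

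Of fibronectin and the matricellular genes, Tnc, Sparc and Thbs1 were higher at both days, and Fn1, Postn and Thbs2 passed the test at day 3. Tnc, tenascin C, had 4.37, 4.24, 3.10 and 14.3 CPM at day 0, 125, 85.9, 29.98, 44.3 and 98.6 CPM at day 1 and 56.9, 17.5, 31.1, 142 and 257 CPM at day 3. Every later library exceeded every day 0 library, and the spread at day 3 was wide. Tnc gave 3.56 on the log2 scale at day 1 (SE 0.79, adjusted p = 0.00311) and 3.96 at day 3 (SE 0.80, adjusted p = 0.00249). Without day 0 replicate 4, at 14.3 CPM, these were 4.296 (adjusted p = 0.00321) and 4.69 (adjusted p = 0.00293). The day 3 value was 3.27 without day 3 replicate 5, at 257 CPM. Sparc, a collagen-binding protein and the most abundant interstitial member, and Thbs1, thrombospondin 1, were also higher in every library of both days, with log2 fold changes of 1.60 and 1.72 at day 1 and 2.09 and 1.57 at day 3. Fn1, fibronectin, had 25.9, 27.2, 25.6 and 76.7 CPM at day 0, 33.8 to 45.7 CPM at day 1 and 102, 106, 154, 117 and 76.8 CPM at day 3. Apart from day 0 replicate 4, with 76.7 CPM, the day 0 libraries were below every day 1 library, and the lowest day 3 library was barely above replicate 4. Fn1 gave 0.00 on the log2 scale at day 1 (SE 0.31, adjusted p = 0.991) and 1.52 at day 3 (SE 0.32, adjusted p = 0.0029). Without day 0 replicate 4 it was 0.57 at day 1 (adjusted p = 0.04) and 2.08 at day 3. Postn, periostin, and Thbs2 gave log2 fold changes of 2.99 and 1.41 at day 3, and the difference between the days was not called for either gene. Without day 0 replicate 4 Postn gave 2.55 at day 1 (adjusted p = 0.039), called, and 3.66 at day 3.

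**Figure D2:**
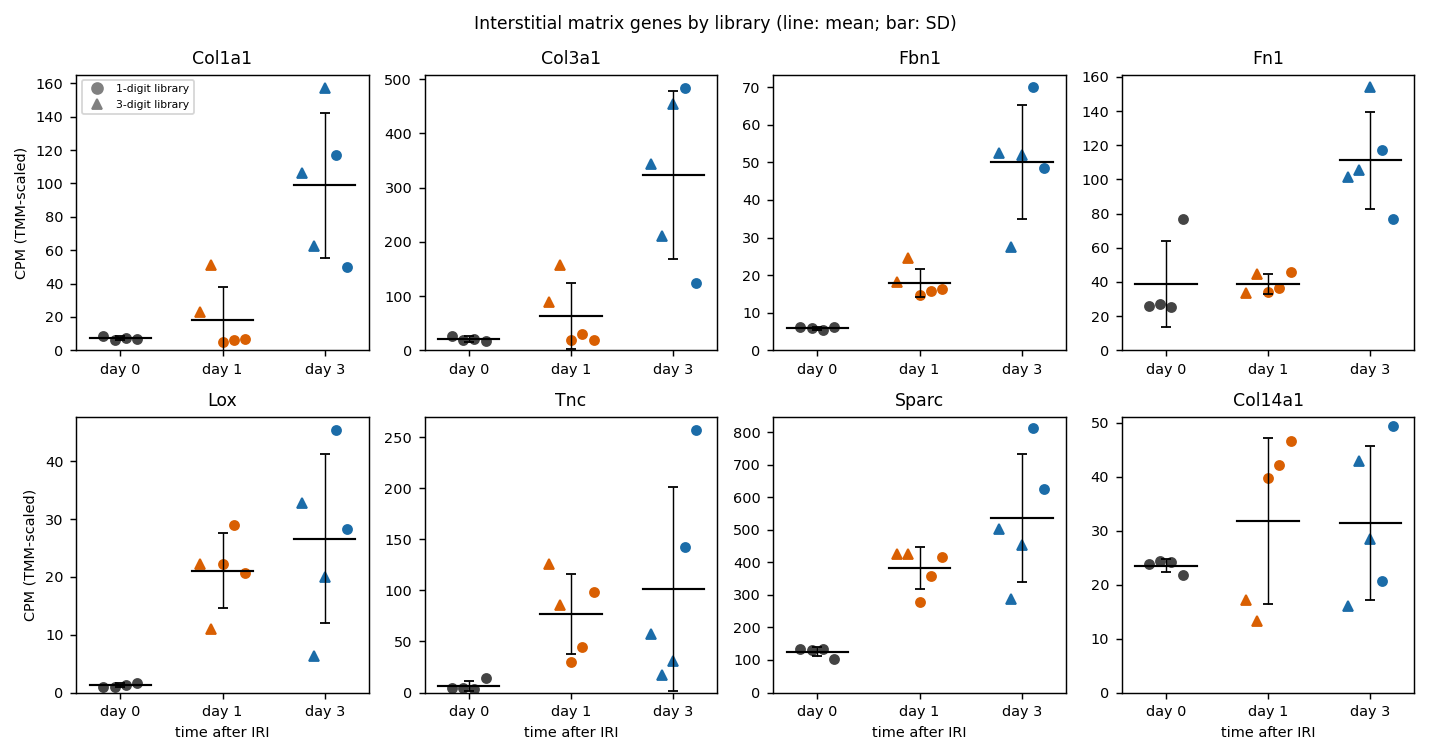
CPM of 8 interstitial genes in each library, with circles for 1-digit and triangles for 3-digit libraries, the mean as a line and the SD as a bar. Lox, Tnc, Sparc and Fbn1 are above day 0 in every library of day 1, whereas the 1-digit libraries of day 1 are at or below 6.68 CPM for Col1a1 and at or below 30.1 CPM for Col3a1, against day 0 maxima of 8.80 and 27.4 CPM.

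The type IV collagen chains moved in opposite directions at day 1. Col4a1, the most abundant basement membrane member, had 253, 236, 252 and 246 CPM at day 0, 766, 660.1, 692, 845 and 768 CPM at day 1 and 674, 488, 571, 992 and 1427 CPM at day 3. Its partner Col4a2 had 155 to 171 CPM at day 0, 339 to 503 CPM at day 1 and 262 to 700.0 CPM at day 3. Both genes were above day 0 in every later library. The log2 fold change was 1.60 for Col4a1 (SE 0.26, adjusted p = 0.000464) and 1.37 for Col4a2 (SE 0.25, adjusted p = 0.00091) at day 1. At day 3 it was 1.75 (SE 0.26, adjusted p = 0.000367) and 1.51 (SE 0.25, adjusted p = 0.000698).

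Col4a3, which encodes the α3 chain of the glomerular network, had 274, 303, 247 and 267 CPM at day 0 and 90.6, 86.1, 133, 89.3 and 96.4 CPM at day 1. At day 3 it had 284, 214, 272, 204 and 75.7 CPM, so that 4 of 5 libraries were back above every day 1 library and replicate 5 was not. The log2 fold change was -1.46 at day 1 (SE 0.28, adjusted p = 0.00123) and -0.38 at day 3 (SE 0.28, adjusted p = 0.303), and day 3 against day 1 gave 1.08 (SE 0.27, adjusted p = 0.0162). In the 1-digit libraries of day 3, the format of day 0, Col4a3 was still lower than day 0 (-0.97, SE 0.30, adjusted p = 0.0156). Col4a4 had 236 to 266 CPM at day 0, 80.3 to 213 CPM at day 1 and 85.3 to 182 CPM at day 3, below day 0 in every later library, with log2 fold changes of -0.91 and -0.76. The day 3 call of Col4a4 was lost when libraries were scaled to total counts and without day 0 replicate 4 (-0.75, adjusted p = 0.0717). Col4a5, on the X chromosome, had 47.3 to 58.9 CPM at day 0 and 12.9 to 39.6 CPM at day 1 (log2 fold change -1.20), and 64.3, 75.0, 71.5, 31.9 and 15.4 CPM at day 3 (log2 fold change -0.06). The 3 higher values at day 3 were the 3-digit libraries, and the 1-digit libraries of day 3 were called lower than day 0 (-1.18, adjusted p = 0.00681). At day 1 none of the 8 podocyte markers, nephrin (Nphs1) among them, changed by edgeR's test (3 did at an unadjusted p under 0.05, and 1 by DESeq2), and their summed CPM was 342 ± 32.3 for day 0 (SD, n = 4), 400.2 ± 47.6 for day 1 (SD, n = 5) and 424 ± 84.4 for day 3 (SD, n = 5). Of these markers 1 was higher and 1 lower in each number format of day 1 against day 0, and 1 was higher at day 3. Their part in the Col4a3, Col4a4 and Col4a5 values was not tested.

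**Figure D3:**
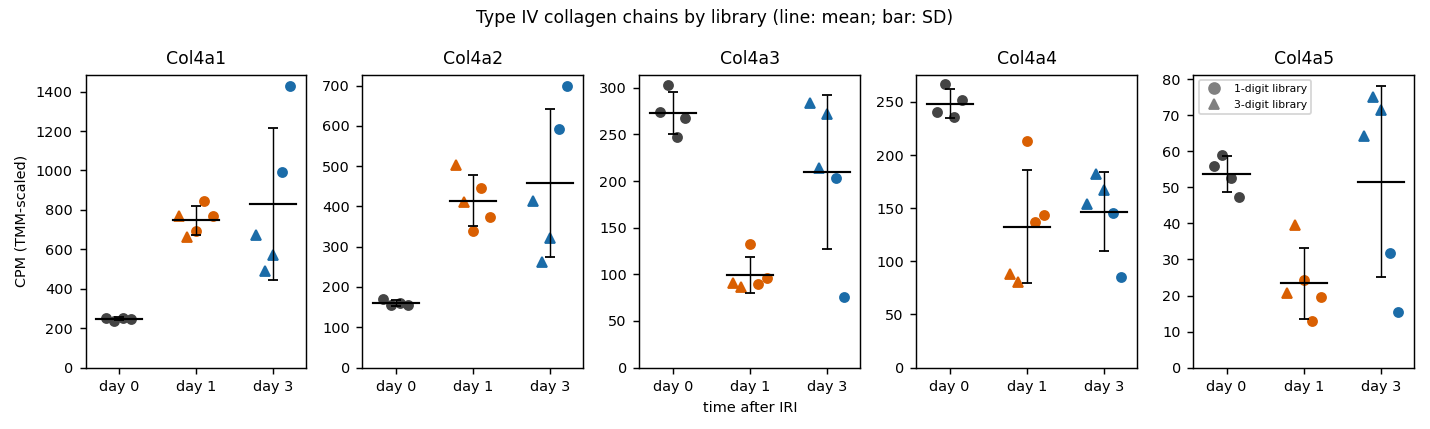
CPM of the 5 type IV collagen chains in each library, with circles for 1-digit and triangles for 3-digit libraries, the mean as a line and the SD as a bar. Col4a1 and Col4a2 are above day 0 in all 10 later libraries, and Col4a3, Col4a4 and Col4a5 are below day 0 in all 5 libraries of day 1.

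Of the 6 laminin chains, Lama5 and Lamc1 rose at both days and Lamb1 rose at day 3. Lama5, the α5 chain found in the tubular and glomerular basement membranes, had 106, 89.7, 87.2 and 119.7 CPM at day 0, 197, 167, 211, 228 and 198 CPM at day 1 and 306, 175, 188, 247 and 386 CPM at day 3. Lamc1, the γ1 chain shared by most laminins, had 44.9 to 60.8 CPM at day 0, 88.7 to 132 CPM at day 1 and 64.0 to 163 CPM at day 3. Neither gene overlapped with day 0 at either day. The log2 fold change of Lama5 was 0.99 at day 1 (SE 0.21, adjusted p = 0.00262) and 1.37 at day 3 (SE 0.22, adjusted p = 0.00049), and that of Lamc1 was 1.09 (SE 0.22, adjusted p = 0.00184) and 1.07 (SE 0.22, adjusted p = 0.00284). Lamb1, the β1 chain, had 163 to 168 CPM at day 0 and 204 to 251 CPM at day 3, a log2 fold change of 0.40 that passed the test, after 0.08 at day 1. Lamb2, the β2 chain of the mature glomerular basement membrane, and Lama2 and Lama4, the α2 and α4 chains of muscle and vessels, passed at neither day, with log2 fold changes from -0.27 to 0.65. In the 1-digit libraries, Lama2 was higher than day 0 at day 1 (0.55, adjusted p = 0.0114) and day 3 (1.19, adjusted p = 0.000182), and Lama4 at day 3 (0.91, adjusted p = 0.0107).

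Nid1 and Nid2 encode nidogens, which bridge laminin and type IV collagen, and only Nid1 was called at day 1. Nid1 had 38.1, 37.3, 37.8 and 29.4 CPM at day 0, 108, 78.8, 84.9, 113 and 110.0 CPM at day 1 and 82.4, 81.1, 86.6, 154 and 247 CPM at day 3, above day 0 in every library. Its log2 fold change was 1.47 at day 1 (SE 0.30, adjusted p = 0.00201) and 1.87 at day 3 (SE 0.31, adjusted p = 0.00069). Nid2 gave 0.11 at day 1 and 0.83 at day 3, called only at day 3 and not without day 0 replicate 4 (0.76, adjusted p = 0.052), and day 3 against day 1 gave 0.72 (adjusted p = 0.043). Col18a1, whose C-terminal fragment is endostatin, was higher in every library of both days (1.13 and 1.06), from 179 to 187 CPM at day 0 to 264 to 538 CPM at day 1. Col15a1, its relative in the basement membrane zone, gave 0.53 at day 1 and 1.67 at day 3, where it passed the test. Hspg2, perlecan, passed at neither day over all libraries (-0.14 and 0.47), whereas the 1-digit libraries were called lower at day 1 (-0.51, adjusted p = 0.0176) and higher at day 3 (0.77, adjusted p = 0.00322).

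**Figure D4:**
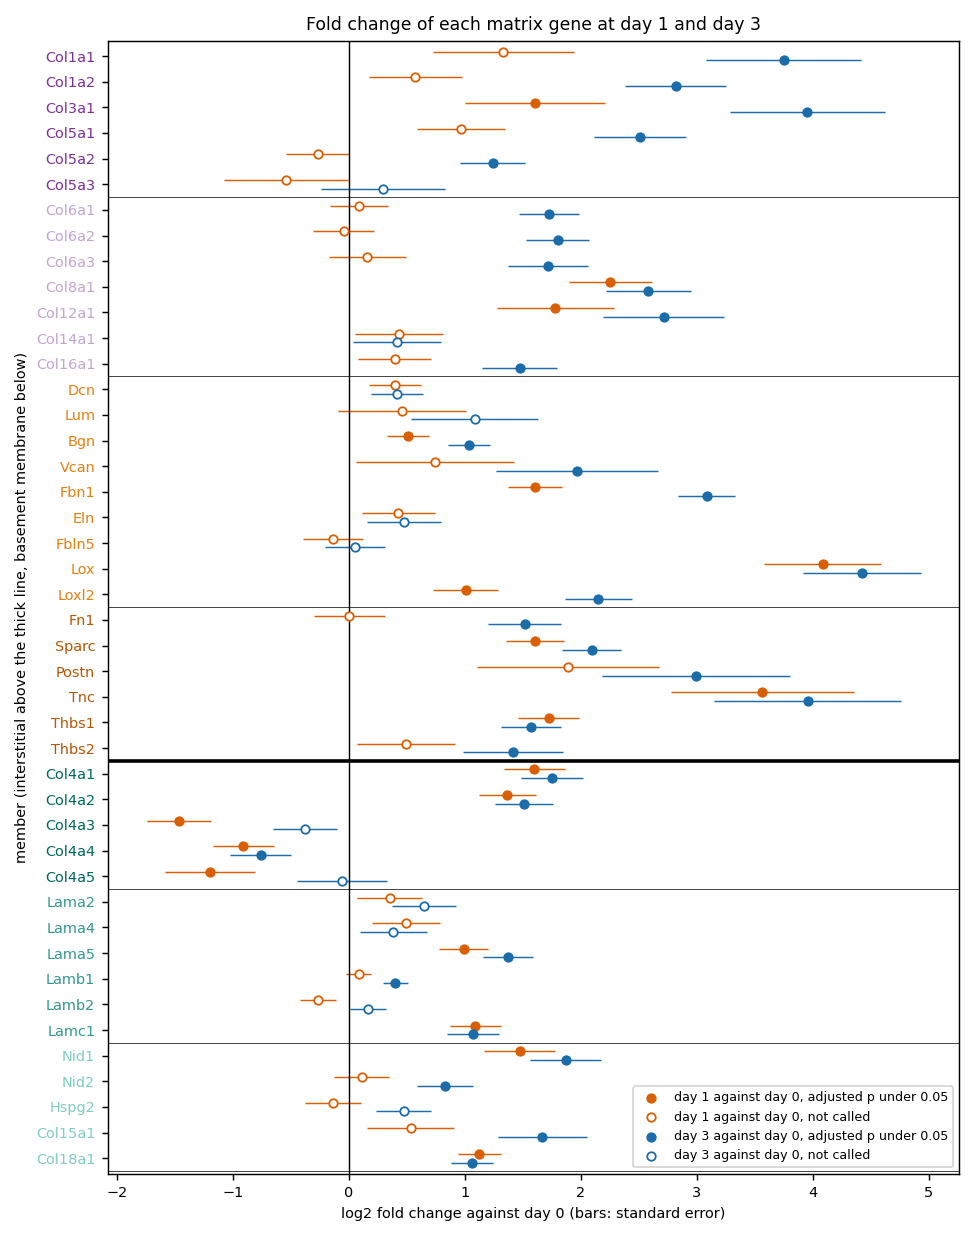
Log2 fold change of each member against day 0 at day 1 and day 3 with its standard error, filled where the edgeR adjusted p is under 0.05. At day 3 all 28 interstitial values are above 0 and 22 are filled, whereas the type IV chains lie on both sides of 0.

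Levels between genes were compared as CPM per kilobase of exon, with exon lengths of GENCODE vM21. The length of a gene was the union of all its annotated exons, which can exceed that of its main transcript. Ranks depend on this choice, as with 8326 bases for Col6a2 and 4380 for Col6a1. At day 0 the highest members were Sparc (33.1 ± 3.78), Col4a1 (33.0 ± 1.03) and Col4a3 (27.4 ± 2.30, SD, n = 4 each), and Sparc and Col4a1 did not differ beyond their spread. Postn and Vcan were the lowest, both at 0.20. At day 1 and day 3 the order began with Sparc, Col4a1, Col4a2 and Col18a1. Col3a1 was sixth at day 3, at 33.0 ± 15.7 CPM per kilobase (SD, n = 5), close to Bgn at 41.6 ± 10.8. The spread over libraries at day 3 was wider than the steps between these neighbours.

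Between day 1 and day 3, 5 of 6 fibrillar collagens and all 3 type VI collagens rose. In this comparison 12 interstitial and 5 basement membrane genes were higher and 0 members were lower (0 also at an unadjusted p under 0.05, and 0 by DESeq2), where 15.9% of all tested genes were called (8.52% higher and 7.39% lower). With total counts in place of TMM, 77.9% of the called genes were higher, against 53.6%. The log2 fold change was 2.42 for Col1a1 (SE 0.57, adjusted p = 0.0138), 2.24 for Col1a2 (SE 0.39, adjusted p = 0.00389), 2.35 for Col3a1 (SE 0.56, adjusted p = 0.0149) and 1.51 for Fn1 (SE 0.29, adjusted p = 0.0062). Without day 1 replicate 2 it was 3.27 for Col1a1 and 3.02 for Col3a1. Col6a2 had the largest fold of the other interstitial collagens, 1.84 (SE 0.25, adjusted p = 0.00137), and Fbn1 that of its role, 1.48 (SE 0.21, adjusted p = 0.00143). Of the 16 members higher at day 1, 3 were higher again at day 3, which were Col3a1, Fbn1 and Loxl2 (1.14), and 13 were not called between the days, with 0.34 for Lox, 0.39 for Tnc, 0.15 for Col4a1, 0.14 for Col4a2, 0.38 for Lama5, -0.02 for Lamc1 and 0.40 for Nid1 among them. Vcan gave 1.22 (SE 0.63, adjusted p = 0.193). The 5 basement membrane calls were Col4a3, Col4a5 (1.14), Lamb1 (0.32), Nid2 and Col15a1 (1.13). These calls depended on the fit, and 0 basement membrane genes were called when only the libraries of these days were fitted, and 1 to 6 when 1 library was left out. Of the 14 fits without 1 library, 12 lost the call of Lamb1, 11 that of Col4a5 and 11 that of Col15a1.

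The comparisons of days were repeated within each number format. Within the 1-digit libraries, day 3 against day 1 gave 18 interstitial and 9 basement membrane genes higher and 0 lower, where 32.0% of all genes were called (16.5% higher and 15.5% lower). At an unadjusted p under 0.05, 1 basement membrane gene was lower, and 0 were by DESeq2. Within the 3-digit libraries it gave 9 and 3 higher, and 1 interstitial gene, Thbs1, lower, where 13.9% were called (7.50% higher and 6.41% lower). Without day 1 replicate 1, which leaves 1 library in the 3-digit group of day 1, the latter comparison called fewer members and fewer genes in all. Against day 0, the 1-digit libraries of day 1 had 9 interstitial genes higher and 1 lower (Col5a3) and 7 basement membrane genes higher and 4 lower, where 58.5% of genes were called (28.9% higher and 29.6% lower). Here Col1a1 gave -0.30 (adjusted p = 0.512) and Col3a1 0.15 (adjusted p = 0.769), whereas Lox gave 4.28, Tnc 3.15, Col8a1 1.82, Sparc 1.48 and Col4a1 1.64, all called. The 3-digit libraries of day 1 had Col1a1 at 2.33 (adjusted p = 0.000445) and Col3a1 at 2.57 (adjusted p = 0.000519) against day 0, a comparison that also crosses formats, with 23 members higher and 4 lower where 41.6% of genes were called (22.6% higher and 19.0% lower). At day 3 the 1-digit libraries had 21 interstitial genes higher than day 0 and 0 lower, and 12 basement membrane genes higher and 3 lower (Col4a3, Col4a4 and Col4a5), with medians of 1.90 and 1.12, where 53.7% of genes were called (28.6% higher and 25.1% lower), and the 3-digit libraries had 20 interstitial genes higher and 0 lower, and 8 basement membrane genes higher and 1 lower (Col4a4), with medians of 1.84 and 0.38, where 32.4% were called (19.1% higher and 13.3% lower). In both formats 0 interstitial genes were lower at an unadjusted p under 0.05 and by DESeq2. Vcan lost its day 3 call in each format, and Thbs2 and Nid2 lost theirs in the 3-digit libraries. Col4a3, Col4a4 and Col4a5 were lower than day 0 in both formats of day 1.

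At day 1 the 3-digit libraries exceeded the 1-digit libraries in 11 interstitial and 3 basement membrane genes and were lower in 2 of each class, where 35.0% of all genes were called (18.6% higher and 16.4% lower). With total counts in place of TMM, the median of all genes shifted by 0.21 and 73.1% of the called genes were higher, against 53.1%. Postn gave the largest log2 fold change, 2.87 (SE 0.69, adjusted p = 0.007), with 10.5 and 16.1 CPM against 1.16, 2.11 and 2.17 CPM. Col1a1 gave 2.63 (SE 0.42, adjusted p = 0.000802), Col3a1 2.42 (SE 0.47, adjusted p = 0.00218) and Col1a2 1.64 (SE 0.32, adjusted p = 0.00237). Col12a1 gave 1.64 (SE 0.37, adjusted p = 0.00516) and Col15a1, the leading basement membrane gene, 1.17 (SE 0.36, adjusted p = 0.0238), with 35.3 CPM in replicate 2 and 9.74 to 13.4 CPM in the other day 1 libraries. A fit without replicate 1 or replicate 2 leaves 1 library in the 3-digit group. Without replicate 2 Col15a1 gave 0.31, Postn 2.52, Col4a4 -0.90 and Col1a1 1.93, and without replicate 1 Col12a1 gave 1.21. Not all interstitial genes were higher: Fbln5, with 34.5 and 32.4 against 72.6 to 75.9 CPM, gave -1.16 (SE 0.18, adjusted p = 0.000648), and Col14a1 gave -1.49. Fn1 (0.03), Vcan (0.14), Tnc (0.88), Lama5 (-0.22), Lamc1 (-0.26), Nid1 (-0.13), Col4a1 (-0.11), Col4a2 (0.25) and Col4a3 (-0.27) did not pass, whereas Col4a4 (-0.97, SE 0.23, adjusted p = 0.00611) and Lama2 (-0.54, SE 0.20, adjusted p = 0.0476) were lower. The call of Lama2 was lost with total counts and in 9 of 14 fits without 1 library, with values from -0.92 to -0.25. Leaving out day 1 replicate 2 lowered the number of calls in both classes and over all genes, in a fit with 1 library in the 3-digit group. The same libraries differed in markers of other cells. Smooth muscle markers summed to 499 and 584 CPM in the 3-digit and 311 to 399 CPM in the 1-digit libraries, with 7 of 8 genes higher, and fibroblast and pericyte markers to 168 and 171 against 117 to 139.8 CPM, with 3 of 12 higher. Urothelium markers summed to 21.8 and 123 against 5.04 to 8.77 CPM, with 5 of 8 higher and Krt15 at 0 counts in all 1-digit libraries. Macrophage markers summed to 331 and 340 against 136 to 199.8 CPM, with 1 of 8 higher. Proximal tubule markers summed to 19575 and 30837 against 36951 to 48020 CPM, with 4 of 8 lower. Tubular injury markers summed to 7307 and 6662 against 2375 to 5130.5 CPM, where DESeq2 called 1 of 8 higher and 1 lower. Of 8 podocyte markers 2 were higher and 2 lower, of 9 endothelial markers 3 higher and 2 lower, and of 8 proliferation markers 2 higher. The part of these cells in the matrix values was not tested.

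At day 3 the order was different. The 3-digit libraries were lower in 5 interstitial and 7 basement membrane genes and higher in 1 (Col4a5), where 18.5% of all genes were called (10.3% higher and 8.22% lower). Tnc gave -2.50 (SE 0.62, adjusted p = 0.0187), with 56.9, 17.5 and 31.1 CPM against 142 and 257 CPM. Nid1 gave -1.27 (SE 0.20, adjusted p = 0.00372), Col4a1 -1.07 (SE 0.18, adjusted p = 0.00479), Col4a2 -0.96 (SE 0.19, adjusted p = 0.00755), Lama2 -1.05 (SE 0.19, adjusted p = 0.00604), Lamc1 -0.75 (SE 0.20, adjusted p = 0.0264) and Col12a1 -1.16 (SE 0.36, adjusted p = 0.0424). Col4a5 gave 1.57 (SE 0.33, adjusted p = 0.0102). The fibrillar collagens did not pass in this comparison, with 0.38 for Col1a1, -0.19 for Col1a2 and 0.14 for Col3a1, nor did Fn1 (0.31), Vcan (0.26), Lama5 (-0.50) and Col4a3 (0.88). Without day 3 replicate 5, which had the highest Col4a1, Nid1 and Tnc, 1 library was left in the 1-digit group. Fewer members and fewer genes in all were called in that fit. It gave -0.80 for Col4a1, -0.91 for Nid1 and -2.03 for Tnc. The Col12a1 call was lost in 8 of 14 fits without 1 library, and its value was -0.63 without day 3 replicate 4. Without the latter, which also leaves 1 library in the 1-digit group, Col4a5 gave 2.19, Col4a3 1.76 and Col3a1 1.44. The calls of Tnc and Lamc1 were lost without replicate 2 or 3, and Lama5 passed without replicate 1 (-0.80, adjusted p = 0.0128). Smooth muscle markers summed to 294 to 350.2 CPM in the 3-digit and 785 and 966 CPM in the 1-digit libraries (4 of 8 lower), and endothelial markers to 255 to 446 against 654 and 1029.6 CPM (6 of 9 lower). Fibroblast and pericyte markers summed to 158 to 211 against 258 and 312 CPM, with 2 of 12 higher and 2 lower, and macrophage markers to 308 to 482 against 189 and 207 CPM, with 4 of 8 higher and 1 lower. Proliferation markers summed to 390.4 to 756 CPM in the 3-digit against 144 and 165 CPM in the 1-digit libraries, with 5 of 8 higher. Podocyte markers summed to 317 to 406 against 499 and 519.9 CPM, with 2 of 8 lower. Tubular injury markers summed to 1465 to 3387 against 4223 and 5753 CPM, where DESeq2 called 0 of 8. Urothelium markers summed to 52.7 CPM in replicate 4 and 1.69 to 16.4 CPM in the other day 3 libraries, with 1 of 8 lower, and proximal tubule markers to 20411 CPM in replicate 2 and 9914 to 11747 CPM in the others, with 2 of 8 higher. The part of these cells in the matrix values was not tested.

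**Figure D5:**
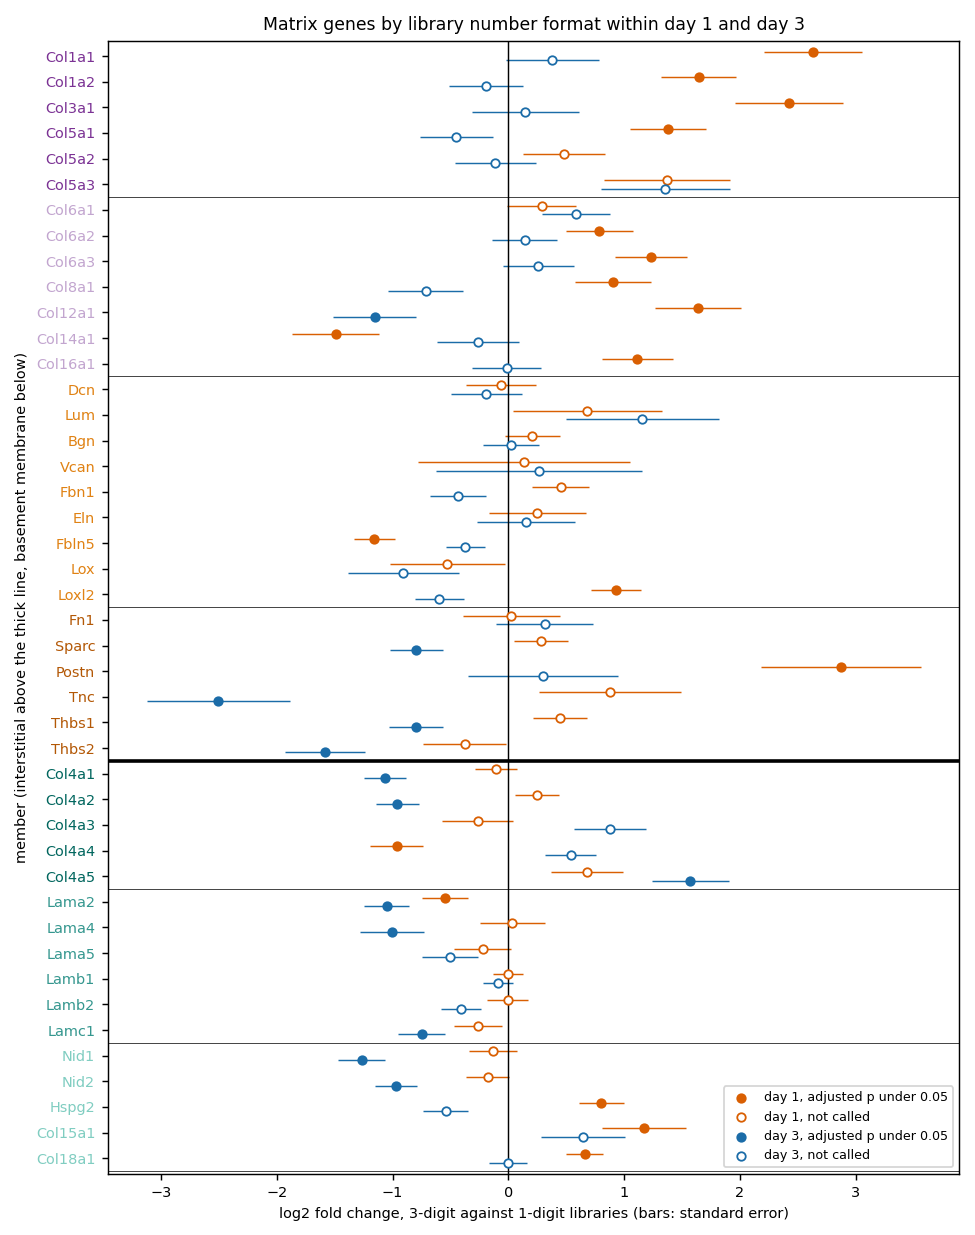
Log2 fold change of the 3-digit against the 1-digit libraries within day 1 and within day 3 with its standard error, filled where the edgeR adjusted p is under 0.05. Filled interstitial values at day 1 are mostly above 0, and filled values at day 3 are below 0 except Col4a5.

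The format effect itself differed between the days in 17 members, where 17.6% of all tested genes were called (9.10% higher and 8.45% lower at day 3). It was lower at day 3 than at day 1 in 15 of these, led by Tnc (-3.38, SE 0.87, adjusted p = 0.018), Col12a1 (-2.79, SE 0.52, adjusted p = 0.00377), Col3a1 (-2.28, SE 0.65, adjusted p = 0.0288) and Col1a1 (-2.25, SE 0.57, adjusted p = 0.0176). It was higher in Col4a4 (1.50, SE 0.32, adjusted p = 0.00708) and Fbln5 (0.79). Without day 3 replicate 4, which leaves 1 library in the 1-digit group of day 3, Col3a1 gave -0.99, Col1a1 -1.52, Col1a2 -1.17 and Col4a3 2.02. Of 14 fits without 1 library, 5 lost the call of Col3a1, and 2 each that of Col1a1, Col1a2, Tnc, Col4a1 and Nid1.

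Matrix genes outside the set were counted in lists, where of all tested genes 23.3% were higher and 18.7% lower at day 1 and 19.5% higher and 13.8% lower at day 3, and no difference between a list and the members was tested. Of 30 other interstitial matrix genes tested, 6 were higher and 6 lower at day 1, and 15 higher and 5 lower at day 3. Osteopontin (Spp1) rose by a log2 fold change of 4.01 and then 4.57, and the matricellular genes Ccn1 and Ccn2 by 4.96 and 3.14 at day 1. Tenascin N (Tnn), a relative of Tnc, fell by 5.78 at day 1. Of 14 other basement membrane genes, 2 were higher and 4 lower at day 1, with 1.83 for Tinagl1 and -1.61 for Npnt, nephronectin. At day 3 this list had 2 higher and 3 lower. Of 16 collagen processing and cross-linking genes, 4 were higher and 1 lower at day 1 and 6 higher and 3 lower at day 3. Adamts2, which removes the N-propeptide of procollagen, gave 2.28 and 3.45. Of 19 matrix receptors, 12 were higher and 4 lower at day 1 and 10 higher at day 3, with the hyaluronan receptor Cd44 at 3.59 and 3.78 and the fibronectin receptor chain Itga5 at 2.66 and 2.61. Itgb8 fell by 2.22 at day 1.

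Markers of the cells that make matrix were counted beside these genes. Of 12 fibroblast and pericyte markers, 1 was higher at day 1 (Pdgfrb, 1.53) and 3 lower. Their median log2 fold change at day 1 was -0.27, with 5 of 12 above 0, so Pdgfrb does not stand for the list. At day 3, 4 of the 12 were higher, with 2.12 for Pdgfrb, and the median was 0.33. Their sum was 107 to 117 CPM at day 0, 117 to 171 CPM at day 1 and 158 to 312 CPM at day 3. Of 8 smooth muscle markers, 3 were higher at day 1 and 4 at day 3, and Acta2, the actin of smooth muscle and myofibroblasts, gave 1.91 and 3.24. Of 9 endothelial markers, 2 were higher and 2 lower at day 1, and 0 were called at day 3 (1 at an unadjusted p under 0.05, and 0 by DESeq2). At day 3 the 1-digit libraries alone gave 7 endothelial markers above day 0, where 28.6% of all genes were higher. The 3-digit libraries alone gave 1 below it, where 13.3% of all genes were lower. In the 1-digit libraries of day 1, 2 of 12 fibroblast and pericyte markers were higher and 6 lower, where 28.9% of all genes were higher and 29.6% lower. Of 8 macrophage markers, 2 were higher and 1 lower at day 1 and 3 higher and 1 lower at day 3. Of 8 proliferation markers, 1 was higher at day 1 and 6 at day 3. Of 8 proximal tubule markers, 2 were lower at day 1 and 4 at day 3. Of 8 urothelium markers, 0 were called at day 1 (0 also at an unadjusted p under 0.05, and 0 by DESeq2) and 1 was lower at day 3.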

How the data were processed

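Kidney total RNA was extracted with TRIzol and sequenced as Illumina TruSeq libraries, 14 in all. Per the submitters' processing notes the authors used Trimmomatic and STAR with the build mm10, and the deposited values are raw counts, not normalized, of reads that map to 1 place, per gene and strand. Such counting can lower genes that resemble others. The column of the opposite strand was used, which held 98.5% to 98.7% of the strand-assigned reads. Rows that name no gene held 29.0% to 38.3% of a library and were left out.

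The analysis used edgeR 4.0.16 in R 4.3.3 (filterByExpr by day, TMM, quasi-likelihood test over all libraries, with 1 term per day or per day and number format). Benjamini-Hochberg adjustment covered all 14300 genes, and an adjusted p under 0.05 was called a change. In simulated counts for day 3 against day 0 (14154 genes, 200 changed by a log2 fold change of 2) edgeR recovered 186 with 9 false calls. The simulated spread was that within day and number format, with no difference between formats. These rates therefore do not carry over to the day comparisons of these libraries, where the formats differed. DESeq2 1.42.0 was an alternative, beside the other strand setting, scalings, filters, subsets of libraries and leaving out each library. CPM were TMM-scaled. Gene positions and exon lengths came from GENCODE vM21 on GRCm38. There, 12 members overlap a predicted gene or small RNA on their strand, where reads can be left uncounted. The annotation used for counting is not given in the sources used here.

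Members and gene lists were chosen with earlier results of these data known. All members could be named. Standard errors and adjusted p-values are given for 12 members chosen by role and for the called member with the largest fold in each role, and list genes by counts with at most 4 examples. Symbols Cyr61 and Ctgf of the files are written Ccn1 and Ccn2.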

Additional observations from a re-analysis of the deposited data

Results flagged for a closer look

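Of 141 groups of member values that were tested for a library apart from the others, 13 held such a library, where chance gives about 1 in 20 (7.05). Among them 8 were day 0 replicate 4, which was highest in Vcan (8.77 CPM), Fn1 (76.7 CPM), Thbs2 (7.68 CPM) and Hspg2 (94.2 CPM) and lowest in Col6a2 (7.74 CPM), Fbln5 (49.3 CPM), Sparc (104 CPM) and Nid1 (29.4 CPM). Its urothelium markers summed to 57.0 CPM against 3.94 to 12.3 CPM in the other day 0 libraries, and their part in these values was not tested. The others were Dcn in day 3 replicate 1 (21.8 CPM, lowest), Thbs1 in day 1 replicate 1 (198 CPM, highest), Col15a1 in day 1 replicate 2 (35.3 CPM, highest), and Col4a3 in day 1 replicate 3 (133 CPM, highest) and in day 3 replicate 5 (75.7 CPM, lowest).

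The difference between 3-digit and 1-digit libraries was not the same at day 3 as at day 1 in 17 members, by edgeR's test of the difference of these log2 fold changes. For 4 fibrillar collagens, called higher in the 3-digit libraries at day 1 and not called at day 3, it was -2.25 for Col1a1, -1.84 for Col1a2, -2.28 for Col3a1 and -1.83 for Col5a1. Without day 3 replicate 4, which leaves 1 library in the 1-digit group of day 3, it was -1.52 for Col1a1, -1.17 for Col1a2 and -0.99 for Col3a1. For other interstitial genes it was -1.62 for Col8a1, -2.79 for Col12a1, -1.53 for Loxl2, -1.08 for Sparc, -3.38 for Tnc, -1.24 for Thbs1 and 0.79 for Fbln5. For basement membrane genes it was -0.96 for Col4a1, -1.20 for Col4a2, 1.50 for Col4a4, -1.14 for Nid1, -0.79 for Nid2 and -1.35 for Hspg2. What the number format stands for is not given in the sources used here.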

How the results depend on the processing

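With another tool, strand setting, scaling, filter, threshold or subset of libraries, 777 values of single genes kept direction and call, 26 lost the call, 12 gained it and 19 changed sign, and of the counts, medians and sums 294 stayed close and 18 moved. A minimum of 1 for the size of the log2 fold change left 2963 genes at day 1, 2597 at day 3 and 921 for day 3 against day 1, with 3 basement membrane members in the latter. In the 1-digit libraries alone 8119 genes changed at day 3 and 5194 between the days, with 19 interstitial and 10 basement membrane members in the latter, a basement membrane median of 1.14 at day 3, and an interstitial median of 1.43 between the days. Where days 1 and 3 were represented by 3-digit libraries alone, that median was 0.60 and 3 basement membrane members changed. Fitting only days 1 and 3 gave 831 genes and 0 basement membrane members, and no filter gave 2 such members. Without the most abundant member the basement membrane sum was 1.26 times day 0 at day 1. The cause was not tested for any of these or the following values, beyond the fewer libraries or the added threshold.

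Single genes changed sign as follows. At day 1, Col1a1 gave -0.27 and Col1a2 -0.28 with 1-digit libraries, and Fn1, whose main value was near 0, gave -0.015 with total counts or with no filter, -0.023 with at least 10 counts in every library and -0.063 with the number format as a term. For day 3 against day 1, the 3-digit libraries gave -1.59 for Tnc, -0.31 for Col4a1, -0.46 for Col4a2 and -0.17 for Nid1, and Lamc1 gave 0.14 with total counts, 0.037 with the format term and 0.26 with 1-digit libraries. For the formats at day 1, Fn1 gave -0.017 with RLE factors and -0.018 with DESeq2, and total counts gave 0.10 for Col4a1 and 0.069 for Nid1. The Vcan difference between the days gave -0.0054 with total counts.

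Same-numbered libraries of different days correlated from -0.171 to 0.264 in their deviations, and others from -0.500 to 0.530, so the numbers were not taken as pairs. With a replicate block 5162, 4103 and 2044 genes changed at day 1, at day 3 and between the days, the basement membrane median at day 1 was 0.27, 3 basement membrane members changed between the days, and Tnc gave -0.15 there.

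With 1 library left out at a time, 514 counts, medians and sums stayed close and 46 moved. Of single-gene values 1180 kept direction and call, 100 lost the call, 7 gained it and 29 changed sign. Fits by format without day 1 replicate 1 or 2, or without day 3 replicate 4 or 5, left 1 library in a group, so their calls rest on the spread of other groups. Leaving out 1 library gave 1 (without day 0 replicate 1) to 6 basement membrane members and 1269 (without day 1 replicate 4) to 3350 genes between the days. For the formats at day 1 it gave 6 to 14 interstitial members, 0 to 6 basement membrane members and 1997 to 5602 genes, all lowest without day 1 replicate 2, and at day 3 it gave 0 to 8, 0 to 10 and 91 to 4771, all lowest without day 3 replicate 5. The difference of format effects ranged over 4 to 13, 3 to 9 and 1260 to 3148, lowest without day 1 replicate 1 or 2. Between the days within 1-digit libraries 2794 to 5117 genes changed, within 3-digit libraries 0 to 16 members and 233 to 2476 genes, and the 3-digit day 1 libraries differed from day 0 in 3420 to 6498 genes. Signs changed for Fn1 at day 1 (-0.15 to 0.57), between the days for Tnc (-0.33 to 0.66), Col4a1 (-0.15 to 0.30), Col4a2 (-0.081 to 0.29) and Lamc1 (-0.25 to 0.11), for the formats at day 1 in Fn1 (-0.19 to 0.20), Vcan (-0.11 to 0.70) and Nid1 (-0.39 to 0.081) and at day 3 in Col1a1 (-0.12 to 1.12), Col1a2 (-0.67 to 0.47), Col3a1 (-0.54 to 1.44) and Vcan (-0.35 to 0.74), and for their difference in Vcan (-0.48 to 0.60) and Lama5 (-0.58 to 0.059).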
